A study of Caenorhabditis elegans with 2 samples.

Results

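Binding of LSY-12, a MYST-family histone acetyltransferase, was followed at the genes for the Hsp70 and Hsp110 chaperones of *Caenorhabditis elegans*. The 6 genes were picked by name from the WBcel235 (ce11) annotation, out of 19973 protein-coding genes on the nuclear chromosomes. They are *hsp-1*, *hsp-70* and *hsp-110*, whose products work in the cytosol, *hsp-3* and *hsp-4*, whose products work in the endoplasmic reticulum (ER), and *hsp-6*, whose product works in mitochondria. The only group was of L3 larvae of mixed sex from strain OP568 (unc-119(tm4063) III; wgIs568), collected 43 h after synchronization by starvation at L1. Its transgene, wgIs568, expresses LSY-12 with GFP and FLAG at its C terminus, and chromatin immunoprecipitation used an anti-GFP antibody. There were 2 biological replicates, numbered 3 and 4. Whole animals were used, so more binding per cell and binding in more cells cannot be told apart, and untagged animals were not analysed here.

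Hsp70 chaperones bind short hydrophobic stretches of unfolded proteins and release them in a cycle of ATP hydrolysis. J proteins start this cycle by stimulating hydrolysis, and nucleotide exchange factors, Hsp110 among them, end it by replacing ADP with ATP. *hsp-1* encodes the constitutive cytosolic Hsp70 and *hsp-70* a heat-inducible one. *hsp-3* and *hsp-4* both encode BiP, the Hsp70 of the ER, and *hsp-4* is the one widely used as a reporter of the unfolded protein response (UPR). *hsp-6* encodes the mitochondrial Hsp70 (mortalin) and serves as a reporter of mitochondrial stress. The heat shock factor HSF-1 binds heat shock elements, inverted repeats of GAA, and the UPR factor XBP-1 binds elements with the core TGACGTG.

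The sequences upstream of *hsp-1*, *hsp-110* and *hsp-4* are shown because they hold the stress elements described below, and for *hsp-110* also the LSY-12 summit. Each gives the 300 bases before the most 5' annotated start of the gene, on the strand of the gene, in build ce11. Capitals mark matches to GAANNTTC, TTCNNGAA or TGACGTG on either strand.
hsp-1 upstream (chrIV:17278659-17278958, plus strand): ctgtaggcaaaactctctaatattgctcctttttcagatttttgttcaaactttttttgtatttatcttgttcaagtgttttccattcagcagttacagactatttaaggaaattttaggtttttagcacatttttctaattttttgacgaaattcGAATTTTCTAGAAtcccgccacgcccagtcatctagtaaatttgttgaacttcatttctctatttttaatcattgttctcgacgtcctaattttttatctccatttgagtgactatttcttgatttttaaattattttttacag
hsp-110 upstream (chrIII:8446910-8447209, minus strand): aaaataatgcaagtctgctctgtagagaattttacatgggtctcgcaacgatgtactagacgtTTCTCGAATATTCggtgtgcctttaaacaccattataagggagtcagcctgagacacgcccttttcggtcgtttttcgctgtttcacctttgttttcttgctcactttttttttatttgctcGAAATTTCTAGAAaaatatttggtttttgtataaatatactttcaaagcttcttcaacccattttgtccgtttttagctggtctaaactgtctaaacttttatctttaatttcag
hsp-4 upstream (chrII:7352646-7352945, minus strand): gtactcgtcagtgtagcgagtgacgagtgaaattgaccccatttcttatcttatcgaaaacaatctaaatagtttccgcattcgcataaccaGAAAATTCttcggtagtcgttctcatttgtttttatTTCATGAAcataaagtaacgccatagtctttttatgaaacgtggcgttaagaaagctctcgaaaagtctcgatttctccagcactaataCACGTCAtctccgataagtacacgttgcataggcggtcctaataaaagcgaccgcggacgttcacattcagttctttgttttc

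The summits of the *hsp-1* and *hsp-6* start peaks lie farther upstream, so the 101 bases centred on each are shown with the same capitals; the window of *hsp-6* holds no match.
hsp-1 start summit (chrIV:17278534-17278634, plus strand): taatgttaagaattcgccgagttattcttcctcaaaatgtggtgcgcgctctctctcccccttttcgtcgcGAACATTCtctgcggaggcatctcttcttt
hsp-6 start summit (chrV:4827135-4827235, minus strand): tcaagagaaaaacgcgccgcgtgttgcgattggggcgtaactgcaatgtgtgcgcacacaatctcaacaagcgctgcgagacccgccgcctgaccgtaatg

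LSY-12 peaks stood at the starts of 4 of the 6 genes, and the level differed widely between them, also within a compartment. A thresholded peak is one of the 2095 that the authors kept at their threshold of irreproducible discovery rate. Such a peak need not have a region in both replicates. A gene is called bound here when a thresholded summit lies no more than 500 bp from the most 5' of its annotated starts. *hsp-1*, *hsp-110*, *hsp-3* and *hsp-6* were bound, and *hsp-70* and *hsp-4* were not. With a window of 250 bp only *hsp-3* was bound (1 of 6), and with each summit given to its nearest start only *hsp-1* and *hsp-3* were (2 of 6). Of all protein-coding genes, 1050 (5.26%) were bound. These genes were chosen with their peaks known, so nothing is read from that contrast and no test was made. Levels are given as relative signal, which is the authors' signal of a region divided by the median of all 30000 candidate regions in the same list.

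Among the cytosolic members, *hsp-1* (WBGene00002005, chrIV:17278959-17281330, plus strand, 4 exons) had a relative signal of 18.9 in replicate 3 and 19.1 in replicate 4, or 19 ± 0.188 (SD, n = 2). Its start peak, chrIV:17278353-17278729, ranked 7 among the thresholded peaks, with the summit 375 bp upstream of the start in a stretch that the annotation leaves between genes. The nearest other start of any kind was that of the non-coding RNA *F26D10.23*, 171 bp from the summit. *hsp-110*, the Hsp110 gene whose product serves as exchange factor for Hsp70 (WBGene00016250, chrIII:8443910-8446909, minus strand, 6 exons), had 8.89 in replicate 3 and 12.4 in replicate 4, or 10.6 ± 2.45 (SD, n = 2). Its peak, chrIII:8447052-8447278, ranked 47 and lay 255 bp upstream of *hsp-110* and 189 bp upstream of the divergent gene *rpn-3*, which encodes a proteasome subunit. The nearest start of any kind was that of the non-coding RNA *C30C11.14*, 69 bp from the summit. The *hsp-110* values cannot be assigned to any 1 of these genes.

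*hsp-70* (WBGene00002026, minus strand, 2195 bp, 3 exons) had no thresholded summit within 5000 bp. Its strongest candidate region in either replicate lay in the start window, with a relative signal of 1.47 in replicate 3, at −212 bp from the start, and 1.82 in replicate 4, at −174 bp. Those regions ranked 4868 and 2820 of 30000, and their q-values in the authors' lists were 0.34 and 0.11. Both replicates thus listed a weak region at this start, above the median of their list and below the threshold. The gene lies within *uggt-2* on the opposite strand, and its nearest thresholded summit was 5084 bp upstream, near the starts of a tRNA gene and of *cbl-1*.

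The difference between *hsp-1* and *hsp-70* was 17.4 in replicate 3 and 17.3 in replicate 4, a mean ratio of 11.7. Both values of *hsp-1* were far above both of *hsp-70*, with a mean difference of 17.3 ± 0.0569 (SD, n = 2). This SD is smaller than that of *hsp-1* (0.188) or *hsp-70* (0.245) alone, since both genes were higher in replicate 4. Between *hsp-1* and *hsp-110* the difference was 9.97 in replicate 3 and 6.77 in replicate 4, or 8.37 ± 2.26 (SD, n = 2), with *hsp-1* the higher in both. With 1 group of 2 replicates no permutation test can be made, and these differences are read against their spread alone.

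The ER genes also differed, although both encode BiP. *hsp-3* (WBGene00002007, chrX:6089028-6092124, minus strand) had 12.2 in replicate 3 and 12 in replicate 4, or 12.1 ± 0.151 (SD, n = 2). Its start peak, chrX:6092043-6092321, ranked 31, covered the start itself and had its summit 38 bp upstream of it. The nearest other protein-coding start, that of *C15H9.5*, was 1138 bp away, so among protein-coding genes this peak lies in the window of *hsp-3* alone.

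*hsp-4* (WBGene00002008, chrII:7350112-7352645, minus strand) had a region of 0.986 in its start window in replicate 3, at 272 bp downstream of the start, and no region in replicate 4 or in the pooled list. A region absent from a list says only that it was not among the 30000 listed, whose lowest relative signal was 0.727 in replicate 3 and 0.731 in replicate 4. The difference between *hsp-3* and *hsp-4* was therefore 11.2 in replicate 3 and at least 11.2 in replicate 4, where the lowest listed value stood in for *hsp-4*. Within 5000 bp its strongest regions reached 1.15 and 1.45, at 1127 and 3382 bp downstream of the start, so the replicates did not point to the same place. The nearest thresholded summit was 5078 bp downstream of the *hsp-4* start and ranked 1750. It would be within 5000 bp of the last of the 3 annotated *hsp-4* starts, which lies 1316 bp downstream of the first. Both unbound genes thus had a thresholded summit just outside the limit of 5000 bp, whereas the bound member nearest to its limit of 500 bp, *hsp-6*, had its summit at 425 bp.

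The mitochondrial member *hsp-6* (WBGene00002010, chrV:4824124-4826760, minus strand, 4 exons) was bound at a lower level, with 2.57 in replicate 3 and 3.08 in replicate 4, or 2.82 ± 0.36 (SD, n = 2). Its start peak, chrV:4826980-4827389, ranked 1060 of 2095. The summit, 425 bp upstream of *hsp-6*, was nearer to the divergent gene *C37H5.5*, at 175 bp upstream of that start, and it lay 79 bp inside the non-coding RNA *C37H5.16*. In order of mean level, *hsp-1* came before *hsp-3*, *hsp-110*, *hsp-6*, *hsp-70* and *hsp-4*. Of these neighbours in the order, *hsp-3* and *hsp-110* are not separated, since *hsp-110* was the higher in replicate 4 and the lower in replicate 3.

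**Figure D1:**
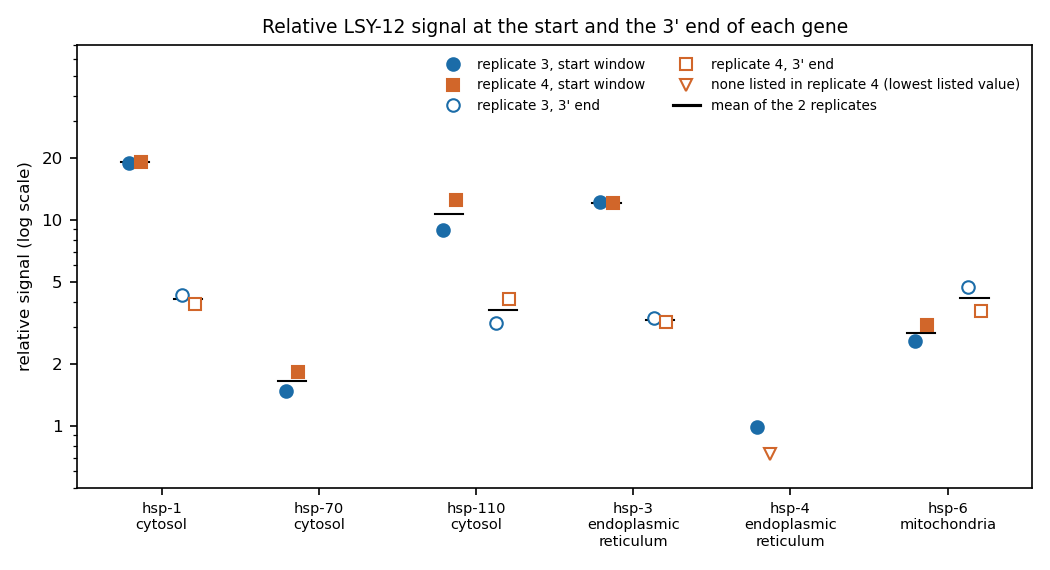
Relative LSY-12 signal (log axis) of each chaperone gene in replicate 3 (circles) and replicate 4 (squares), at the start (filled) and at the 3' end (open), with bars for the mean of the 2 replicates. *hsp-1* lies near 19, *hsp-3* and *hsp-110* between 8.89 and 12.4, *hsp-6* between 2.57 and 3.08, and *hsp-70* between 1.47 and 1.82; for *hsp-4* the triangle is the lowest value listed in replicate 4.

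**Figure D2:**
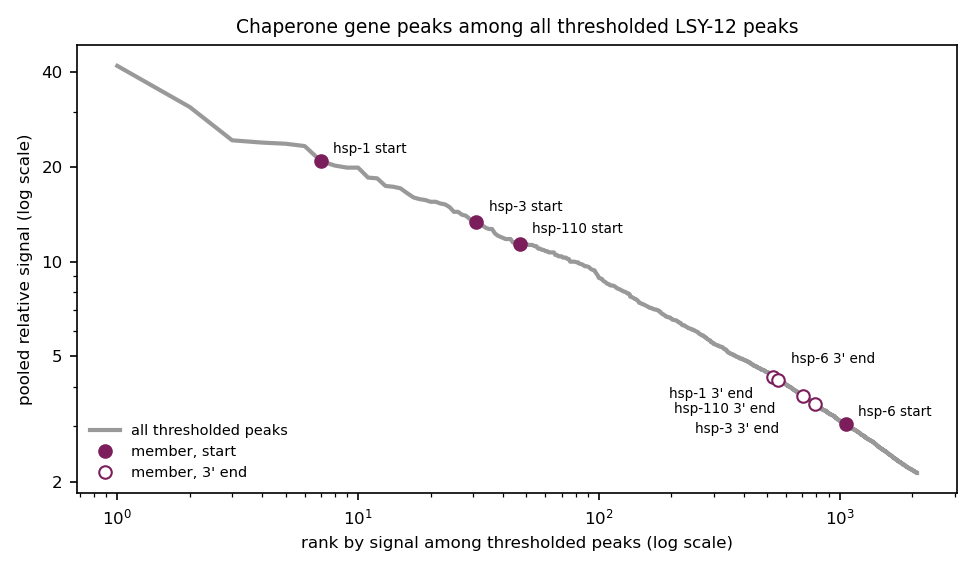
Pooled relative signal of all 2095 thresholded peaks by rank (both axes log), with the chaperone gene peaks marked as filled circles at starts and open circles at 3' ends. The starts of *hsp-1*, *hsp-3* and *hsp-110* hold ranks 7, 31 and 47, whereas the 4 peaks at 3' ends and the start of *hsp-6* lie between ranks 530 and 1060.

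Set among the 1048 bound genes with a region in both replicates, whose median relative signal was 3.14, *hsp-1* stood at position 9, *hsp-3* at 30, *hsp-110* at 39 and *hsp-6* at 604. The start peaks of *hsp-1*, *hsp-110* and *hsp-3* were 377, 227 and 279 bp wide. These widths are narrower than the 410 bp shared by 1882 of the thresholded peaks (89.8%), which *hsp-6* also had. Of the 50 strongest peaks, 49 were narrower than 410 bp and 1 was wider.

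By distance between log2 relative signals over the 2 replicates, the bound genes most like *hsp-1* were *vig-1* (distance 0.14, with 17.3 in replicate 3 and 19.9 in replicate 4) and the ribosomal protein gene *rps-1* (0.17, with 16.7 and 19.2 in the same order). *hsp-110* was nearest to *ekl-4* and the ribosomal protein gene *rps-20*, which share 1 peak (0.05). *hsp-3* was nearest to *rps-12*, also a ribosomal protein gene, and *ska-3*, which share another (0.09). *hsp-6* was nearest to a pair of genes of clone Y105C5A, again at 1 peak (0.02, with 2.6 in replicate 3 and 3.11 in replicate 4).

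Each of the 4 bound chaperone genes also had a thresholded summit just past its 3' end. The summit lay 69 bp beyond the annotated end of *hsp-1*, 143 bp beyond *hsp-110*, 156 bp beyond *hsp-3* and 190 bp beyond *hsp-6*. These 4 and the 4 at the starts were all of the thresholded summits within 5000 bp of the 6 starts, and none lay inside a gene of the set. The pattern was noticed in these values and has no test.

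At the *hsp-1* end, peak chrIV:17281194-17281603 had a relative signal of 4.3 in replicate 3 and 3.89 in replicate 4, or 4.09 ± 0.291 (SD, n = 2), and ranked 530. The *hsp-110* end peak, chrIII:8443562-8443971, had 3.15 and 4.1 in that order of replicates, or 3.62 ± 0.673. The *hsp-3* end peak, chrX:6088667-6089076, had 3.33 and 3.17, or 3.25 ± 0.112. At the *hsp-6* end, chrV:4823729-4824138, the values were 4.73 and 3.59, or 4.16 ± 0.807. The end peaks were thus alike in level, with a ratio of highest to lowest of 1.5 in replicate 3 and 1.29 in replicate 4, against 7.35 and 6.22 for the start peaks of the same genes. The lowest start values were those of *hsp-6*, 2.57 in replicate 3 and 3.08 in replicate 4. The other starts ranged from 8.89 to 18.9 in replicate 3 and from 12 to 19.1 in replicate 4.

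At *hsp-1* the start exceeded the 3' end by 14.9 ± 0.479 (SD, n = 2), at *hsp-3* by 8.83 ± 0.0389 and at *hsp-110* by 7 ± 1.78. *hsp-6* differed in direction, with 2.57 at the start and 4.73 at the 3' end in replicate 3, and 3.08 and 3.59 in replicate 4. Its start minus 3' end was −1.34 ± 1.17 (SD, n = 2), with −2.16 in replicate 3 and −0.513 in replicate 4, so the sign was shared and the spread was nearly as large as the mean.

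**Figure D3:**
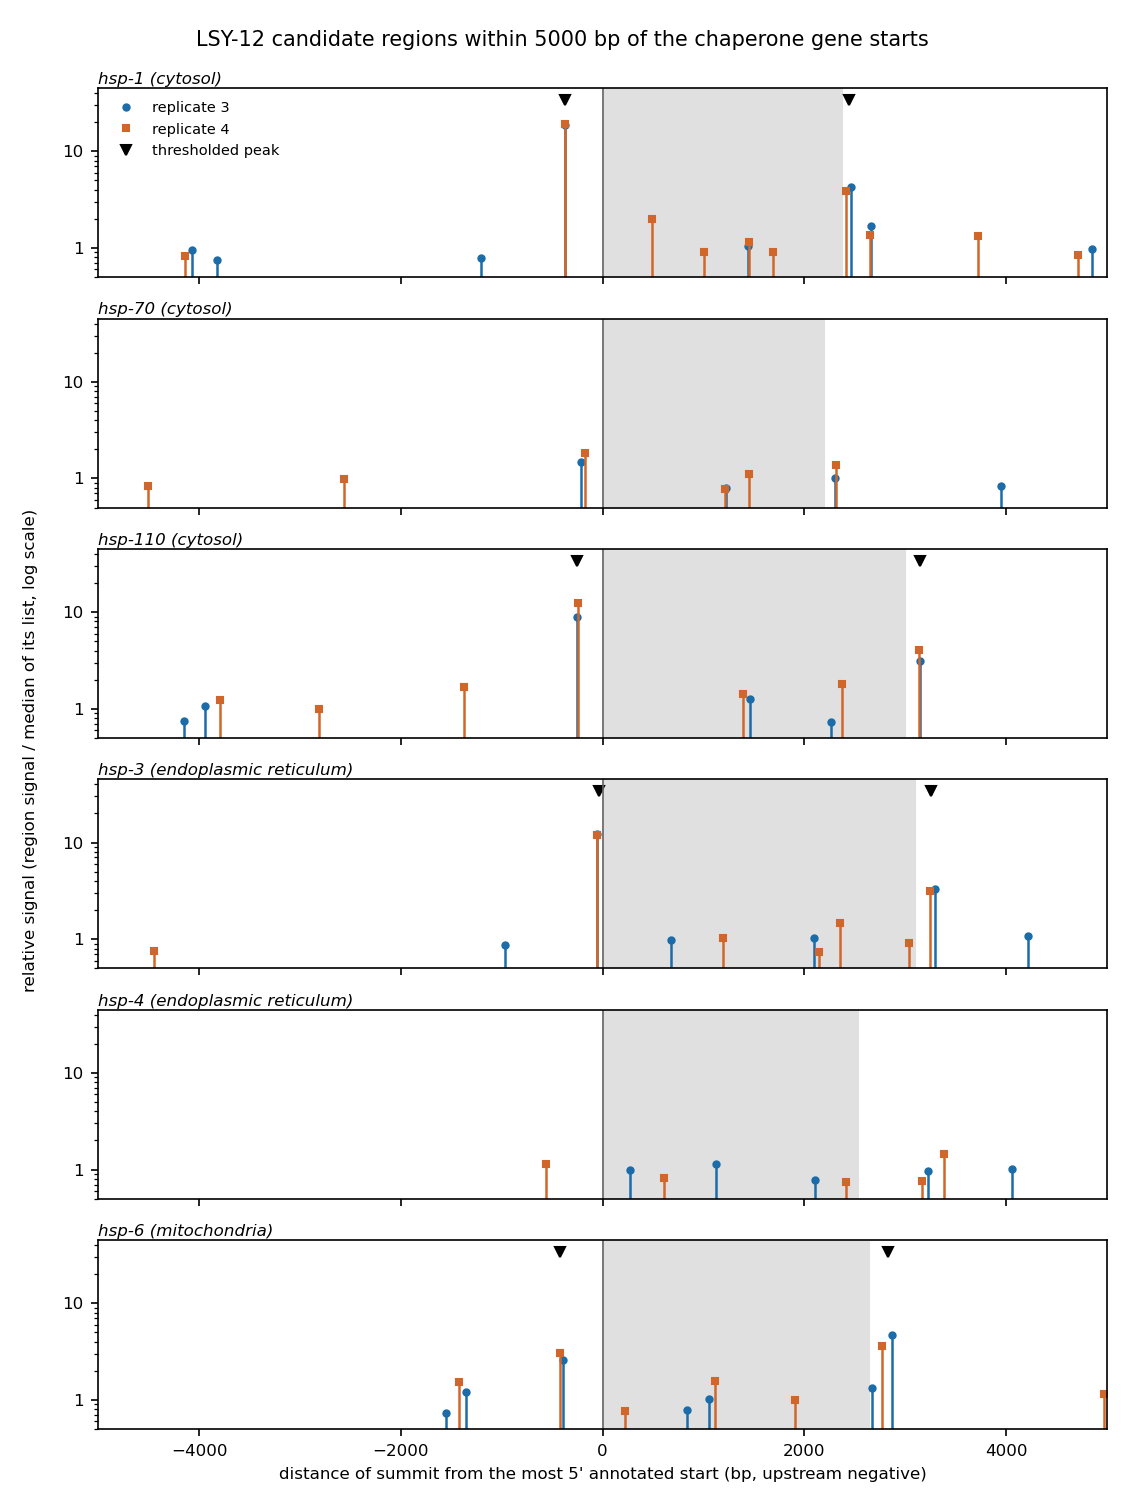
Relative signal (log axis) of every candidate region by the distance of its summit from the most 5' annotated start, for replicate 3 (circles) and replicate 4 (squares), with the gene body shaded and thresholded peaks as triangles. In *hsp-1*, *hsp-110*, *hsp-3* and *hsp-6* the thresholded peaks flank the shaded gene, whereas *hsp-70* and *hsp-4* have no triangle and no region above 1.82.

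The neighbours of these end peaks differed. The *hsp-1* end faces the 3' end of *nra-1*, whose start is 2800 bp from the summit, and the *hsp-3* end faces the 3' end of *C45B2.8*, whose start is 896 bp away. The *hsp-6* end peak lay 511 bp upstream of *adss-1*, just outside the window used for that gene. The *hsp-110* end peak lay 160 bp upstream of *ufbp-1*, which lies downstream on the same strand and is therefore counted as bound by it. The 101 bases around the 3 end summits that lie in the start window of no protein-coding gene are shown on the strand of the chaperone gene. They hold no match to the 3 motifs marked above.
hsp-1 3-prime end (chrIV:17281349-17281449, plus strand): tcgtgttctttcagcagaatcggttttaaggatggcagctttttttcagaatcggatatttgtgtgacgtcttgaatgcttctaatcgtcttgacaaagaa
hsp-3 3-prime end (chrX:6088822-6088922, minus strand): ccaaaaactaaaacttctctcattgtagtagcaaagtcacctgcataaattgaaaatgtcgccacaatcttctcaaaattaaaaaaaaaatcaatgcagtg
hsp-6 3-prime end (chrV:4823884-4823984, minus strand): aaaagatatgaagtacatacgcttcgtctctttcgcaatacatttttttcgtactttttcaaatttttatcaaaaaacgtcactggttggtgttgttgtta

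A thresholded summit within 500 bp of the 3' end that was not also in the gene's own start window was found for 4 of the 6 chaperone genes, against 598 of all protein-coding genes (2.99%). Among the 1050 genes bound at the start it was found for 110 (10.5%), and among those not bound for 488 of 18923 (2.58%). Of the 85 genes bound by a peak among the 104 strongest, 21 had one (24.7%). Of the 147 bound genes with a length between those of the shortest and the longest chaperone gene, 2195 to 3097 bp, 18 did (12.2%). Without summits that lie within 500 bp of any protein-coding start, 3 of the 6 remained, against 69 of the 1050 bound genes (6.57%) and 379 of all genes (1.9%). The bound genes hold the 4 members themselves.

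**Figure D4:**
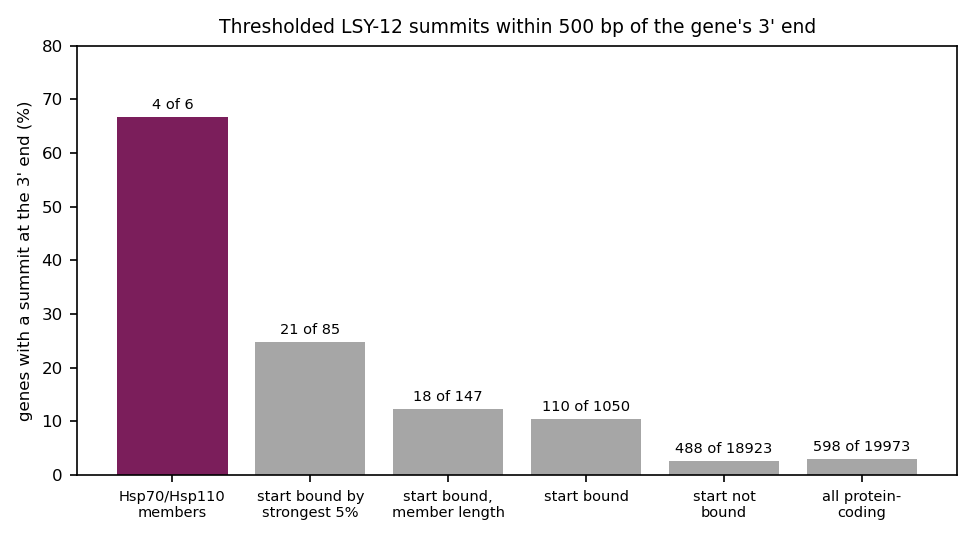
Share of genes (%) with a thresholded summit within 500 bp of the 3' end, for the chaperone genes and for 5 sets of protein-coding genes, with counts above the bars. The chaperone bar stands for 4 of 6 genes, and the others range between 24.7% at the strongest start peaks and 2.58% at genes not bound, with 2.99% over all genes; the sets overlap and no test was made.

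The 2 unbound genes had only weak regions at their 3' ends. *hsp-70* had 1.02 in replicate 3 and 1.36 in replicate 4, at 109 and 115 bp past the end. *hsp-4* had 0.777 in replicate 3, at −428 bp from the end, and 0.745 in replicate 4, at −117 bp, both inside the gene. Candidate regions inside the 6 genes reached 1.98 at most, in replicate 4 at 490 bp past the start of *hsp-1*.

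Upstream of 5 of the genes, all but *hsp-3*, stress elements were searched, and they were found at bound and unbound genes alike. In the window of 250 bp before to 50 bp after the start, a 3-unit heat shock element (GAANNTTC followed by NNGAA, or TTCNNGAA followed by NNTTC, on either strand) was found for *hsp-1*, *hsp-70* and *hsp-110*, all cytosolic, and in 393 of 19973 windows (1.97%). The motif TGACGTG was found for 1 of the 5, *hsp-4*, whose product works in the ER, and in 585 windows (2.93%). *hsp-6* had neither in this window. A match is a description of the letters and shows no factor at the site, and the 2 forms of the 3-unit element are reverse complements of each other.

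*hsp-110* had 2 such heat shock elements, at −237 to −225 and at −115 to −103 bp, and the first began 18 bp from the LSY-12 summit, inside the peak. At *hsp-1* the element at −144 to −132 bp lay 231 bp from the summit and outside the peak, which ended at −230 bp, although a 2-unit match, GAANNTTC, stood 21 bp from the summit. *hsp-70*, with no peak, had its 3-unit element at −73 to −61 bp. At *hsp-4*, also with no peak, the TGACGTG stood at −83 to −77 bp on the opposite strand.

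Over a wider window, from 650 bp before to 50 bp after the start, the 3-unit heat shock element was found for 4 of the 5, against 935 of 19973 windows (4.68%). The added gene was *hsp-6*, with the element at −307 to −295 bp, 118 bp from its summit and inside the peak. In the 410 bp around the summit, 2 of the 3 start summits searched held it, those of *hsp-110* and *hsp-6*, against 57 of all 2095 thresholded summits (2.72%). In the planned 150 bp around the summit, only that of *hsp-110* held the 3-unit element. Both wider windows were added after the values were seen, and the *hsp-6* element was found only with them. The 2-unit elements, GAANNTTC or TTCNNGAA, were common, with 4 of the 5 genes and 32.5% of all windows in the narrow window. The motif CCACG, part of the ER stress element, was found for 2 genes, the cytosolic *hsp-1* and the ER gene *hsp-4*, and in 21.7% of windows. The TATA box, TATAAA, was found for 2, *hsp-70* and *hsp-110*, and in 37.9%.

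**Figure D5:**
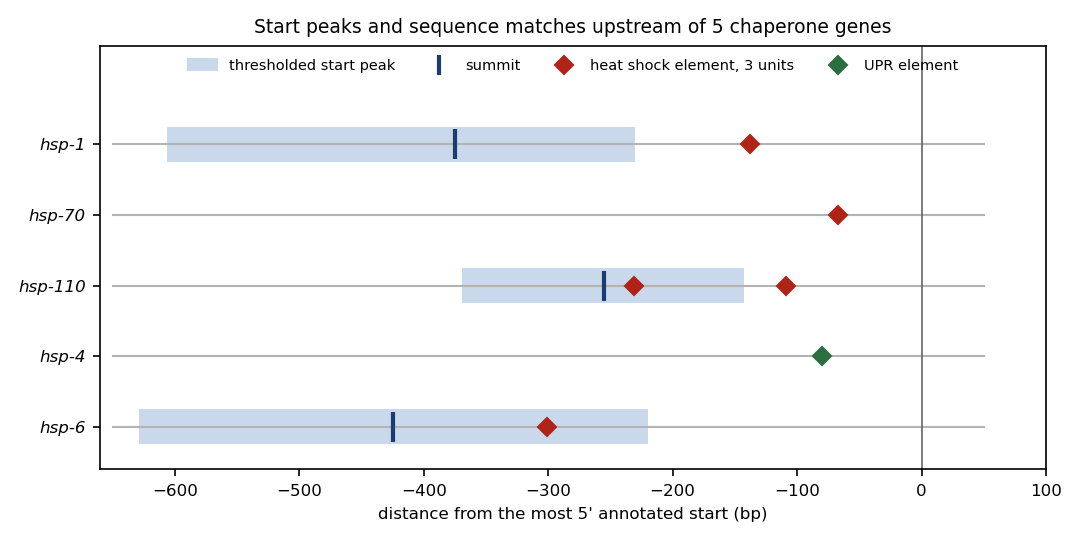
Start peaks (bars), summits (ticks) and motif matches (diamonds) from 650 bp before to 50 bp after the most 5' annotated start (x axis in bp) for 5 of the chaperone genes. The heat shock element of 3 units appears at *hsp-1*, *hsp-70*, *hsp-110* and *hsp-6*, the UPR element at *hsp-4*, and 2 of these matches fall inside a peak, at *hsp-110* and *hsp-6*.

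In *C. elegans* a leader RNA is spliced onto many transcripts, so that an annotated start can be the splice acceptor and transcription begins upstream of it. The last 6 bases before the start read TTACAG at *hsp-1* and TTTCAG at *hsp-110* and *hsp-6*, which match TTNCAG, the form of a splice acceptor. So do 3791 of 19973 starts (19%), and the starts of 370 of the 1050 bound genes. These 3 of the 5 members examined have summits at 375, 255 and 425 bp upstream. The other 2, *hsp-70* and *hsp-4*, did not match and have no start peak, and *hsp-3* was not examined, so the match cannot be set against summit distance among the members. Over all bound genes, the median summit position was −240 bp for the 370 genes with the match and −140 bp for the 680 without it. This property was looked at after the positions were known and has no test.

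Of the genes that work with Hsp70, 15 of 36 listed partners, relatives and stress regulators were bound (41.7%, against 5.26% of protein-coding genes), in a list drawn up with earlier results of these data known. The grouping of nucleotide exchange factors in this list holds no Hsp110-type gene, so it does not cover all such factors. The 3 genes in it were all bound. These were *bag-1* (6.58 in replicate 3 and 7.03 in replicate 4), *unc-23*, a BAG-domain gene (3.91 and 5.62), and *C34C12.8*, the homolog of the mitochondrial exchange factor GrpE (5.57 and 6.3). Of the 8 J protein genes listed, the 3 cytosolic ones were bound, and J protein genes outside the list were not examined. *dnj-13* had 9.85 in replicate 3 and 14 in replicate 4, *dnj-19* had 6.79 and 6.82, and *dnj-12* had 4.97 and 4.02. The peak of *dnj-19* also lay in the window of *nhr-47*, and that of *dnj-12* in the window of *mtx-1*. The listed J protein genes of the ER, *dnj-7*, *dnj-20* and *dnj-27*, and those of mitochondria, *dnj-10* and *dnj-21*, were not bound. Of these, *dnj-10* had candidate regions of 1.39 in replicate 3 and 2.07 in replicate 4, and *dnj-7* of 1.08 and 1.05. The others had none listed in either replicate.

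Among other Hsp70 family genes, the divergent pair *F44E5.4* and *F44E5.5* shared 1 peak of rank 40, with 10.4 in replicate 3 and 11.5 in replicate 4. In that peak 8.06% of the 32-base words were found at more than 1 place in the genome, while none in the 8 peaks of the chaperone genes was. *stc-1*, *T14G8.3*, *T24H7.2* and *F11F1.1* were not bound. Of the Hsp90 group, 2 of 8 were bound, *enpl-1*, the Hsp90 of the ER, with 9.05 and 10.3 in the same order of replicates, and *sti-1*, which links Hsp70 to Hsp90, with 2.21 and 3.01. The peak of *enpl-1* also lay in the window of *imp-2*. *hsp-90* itself and the chaperonin gene *hsp-60*, the partner of *hsp-6* in mitochondrial folding, were not bound.

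Of 10 stress regulators, 5 were bound. For the ER these were *atf-6* (7.21 in replicate 3 and 6.61 in replicate 4), *xbp-1* (3.76 and 5.23) and *ire-1* (2.07 and 1.92), and for mitochondria *ubl-5* (2.7 and 1.22) and *atfs-1* (1.71 and 2.75). The gene of the heat shock factor, *hsf-1*, had no candidate region in its start window in either replicate. In this list, 6 of 36 genes (16.7%, against 2.99% of protein-coding genes) had a thresholded summit at the 3' end. They were *unc-23*, *dnj-13*, *xbp-1* and *atfs-1*, which were bound at the start, and *hsp-90* and *pek-1*, which were not. The *hsp-90* summit, 47 bp past its end with 2.73 in replicate 3 and 2.75 in replicate 4, also lay in the start window of *C47E8.11*, and that of *dnj-13* in the window of *F54D5.7*.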

How the data were processed

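LSY-12 ChIP-seq regions of 2 replicates of 1 group were taken as deposited. Candidate regions came from each replicate and from both pooled, with a control alignment, and were thresholded by the irreproducible discovery rate, per the text deposited with the samples. No source used here names the aligner or peak caller. The signal of each region is the authors' deposited value, on a scale not stated, and was used within a list only. The −log10 q-value is also the authors' deposited value. Summits follow the deposited offsets. Read depth is unknown from these lists, so no counting interval is given. Only ce11 lists were used, with Ensembl release 115 (WBcel235) genes and the RefSeq WBcel235 genome.

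The replicate value of a peak is that of the strongest region overlapping it by at least 1 bp. An unbound gene has its strongest candidate in the window. Motifs were searched on both strands in 5 members, the upstream sequence of *hsp-3* not being reported here, and 32-mers over the 6 nuclear chromosomes. The genes and lists were chosen with earlier results of these data known. All members are named, with the partner genes bound at the start and, for each bound member, the genes that share its peak and the 2 nearest in log2 relative signal. *hsf-2* had no protein-coding match, which left 36 of 37 partner genes. The assignment of summits to genes was tested on simulated data. Python 3.11.15, pandas 2.3.3 and numpy 2.4.6 were used. The alternatives tried are listed in the closing section. The 3' end counts, wider motif window and start form were added after the values were seen.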

Additional observations from a re-analysis of the deposited data

How the results depend on the processing

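Of 92 alternatives, 62 kept their result within the spread or within 1.5 times the count, 30 did not, and none turned a direction. Leaving out 1 of the 2 replicates could not move a relative signal or a difference. Either value lies within the SD of their mean, so those outcomes were fixed in advance and say nothing of robustness. Each replicate alone kept the 4 bound members and the 4 with a summit at the 3' end. With 250 bp to either side, 1 member (*hsp-3*) and 663 of all genes were bound. With each summit given to its nearest start, 2 members (*hsp-1* and *hsp-3*) remained, within 500 bp as within 5000 bp. Peaks of above-median signal left 3 bound members, without *hsp-6*, and 611 bound genes, of which 40 had a summit at the 3' end. Without summits near any start 69 did. Scaled to the median of the strongest regions, the relative signal was 6.62 for *hsp-1*, 0.573 for *hsp-70*, 3.69 for *hsp-110*, 4.21 for *hsp-3*, 0.351 for *hsp-4* and 0.982 for *hsp-6*, in the same order, since the divisor is larger. The differences were then 6.05 (*hsp-1* minus *hsp-70*), 2.93 (*hsp-1* minus *hsp-110*) and 3.91 (*hsp-3* minus *hsp-4*), and start minus 3' end 5.19 (*hsp-1*), 2.43 (*hsp-110*) and 3.08 (*hsp-3*). In the pooled list *hsp-1* had 20.9 and *hsp-3* 13.4, with 19.2 and 12.7 over *hsp-70* and *hsp-4*, and start minus 3' end of 16.6 (*hsp-1*) and 9.86 (*hsp-3*). For these the cause was not tested. In the 150 bp around the start summit of the 3 bound members searched, the 3-unit heat shock element was found for 1 member, the 2-unit one for 2, and the UPR element, the CCACG motif and the TATA box for 0. No paired analysis was possible because both samples belong to 1 group.

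Read depth, untagged animals and the control library were not analysed here, so the spread of 2 replicates is the only error given. All 1882 thresholded peaks of the common width of 410 bp had their summit within 1 bp of the midpoint, as did the *hsp-6* start peak and the 4 peaks at 3' ends, which limits distances to motifs there.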
